A study of Homo sapiens with 6 samples.

Results

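The Eph receptors, a large family of receptor tyrosine kinases, and their membrane-bound ligands, the ephrins, were followed in human renal carcinoma cells of the line SN12C with and without knockdown of YAP and TAZ. The genes described are 5 receptors (EPHA2, EPHA4, EPHB2, EPHB3 and EPHB4) and 5 ligands (EFNA1, EFNA4, EFNA5, EFNB1 and EFNB2), chosen by name and found through the gene symbols of the array annotation. A probe was kept when its detection p-value was under 0.05 on at least 3 of the 6 arrays, which left 20348 of 47315 probes. Kept probes stood for 6 of the 10 genes, 3 receptors and 3 ligands, with 8 probes in all. EPHB2, EPHB3, EFNA5 and EFNB1 had no kept probe under their name and were not analysed here. The annotation used names kept probes only, so these 4 cannot be called below background.

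Both arms carried a GFP-luciferase construct and received doxycycline for 3 days or longer, and serum was left out of the medium for the last 24 hours before harvest. Control cells held the empty inducible vector pTripz (3 arrays), and knockdown cells held pTripz vectors with short hairpin RNAs against YAP and against TAZ (3 arrays). The series calls the 3 arrays of an arm technical repeats, so each p-value below measures the spread between arrays and not between independent cultures. By its title the series asks how signalling and metabolism shift when YAP and TAZ are inhibited in tumor cells without NF2. YAP1 itself was 2.86-fold lower in the knockdown arm, with log2 intensities of 8.47, 8.26 and 8.47 in control cells and of 7.33, 6.77 and 6.56 in knockdown cells (adjusted p = 0.000607 in limma). TAZ is encoded by WWTR1, for which the annotation named no kept probe, so that arm of the knockdown was not checked.

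Ephrins are tethered to the cell surface, A-type ephrins by a lipid anchor and B-type ephrins by a transmembrane segment, so a signal passes mainly between touching cells, and it runs both into the receptor-bearing and into the ligand-bearing cell. EphA receptors mostly bind A-type and EphB receptors B-type ephrins, with EPHA4 as a receptor of both classes. The pathway is best known for repulsion, cell sorting and tissue boundaries, and it acts largely on the actin cytoskeleton. EPHA2 and its ligand ephrin-A1 are widely studied in epithelial tumors, and ephrin-B2 with its receptor EPHB4 is known from the separation of arteries and veins.

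The promoter windows of 3 genes are shown because the results turn on them. They are EFNA1, the ligand that rose most, EFNB2, the ligand that fell, and EPHA2, a receptor of ephrin-A1. The call of EPHA2 depended on the processing and on which arrays were used. Each window is RefSeq sequence of the build GRCh38.p14, 300 bases from 250 before the start of the gene onwards, printed 5′ to 3′ on the strand of the gene, and capitals mark matches on either strand to the core of the TEAD motif (GGAATG, or CATTCC on the other strand), the GC box (GGGCGG or CCGCCC) and the TATA motif (TATAAA or TTTATA).
EFNA1, plus strand, chr1:155127626-155127925: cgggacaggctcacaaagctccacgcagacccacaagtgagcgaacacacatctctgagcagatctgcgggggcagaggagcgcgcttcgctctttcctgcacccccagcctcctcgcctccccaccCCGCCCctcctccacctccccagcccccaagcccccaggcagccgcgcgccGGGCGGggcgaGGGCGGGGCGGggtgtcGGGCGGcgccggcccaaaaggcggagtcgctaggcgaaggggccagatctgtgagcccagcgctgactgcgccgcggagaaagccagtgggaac
EFNB2, minus strand, chr13:106535613-106535912: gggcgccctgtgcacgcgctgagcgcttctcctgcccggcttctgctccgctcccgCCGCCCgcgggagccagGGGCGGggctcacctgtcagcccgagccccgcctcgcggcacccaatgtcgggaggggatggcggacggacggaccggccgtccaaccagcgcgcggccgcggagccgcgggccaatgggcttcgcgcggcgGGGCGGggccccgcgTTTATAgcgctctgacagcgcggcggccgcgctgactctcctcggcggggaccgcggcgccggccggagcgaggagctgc
EPHA2, minus strand, chr1:16156020-16156319: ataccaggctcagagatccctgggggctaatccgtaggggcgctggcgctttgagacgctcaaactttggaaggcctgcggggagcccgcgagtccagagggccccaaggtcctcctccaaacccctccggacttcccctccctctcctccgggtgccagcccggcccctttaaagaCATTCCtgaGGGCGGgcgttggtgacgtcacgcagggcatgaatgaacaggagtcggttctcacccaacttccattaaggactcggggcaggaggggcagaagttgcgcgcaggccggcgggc
TEAD factors are the DNA-binding partners of YAP and TAZ. A match to the TEAD core stood in the EPHA2 window, 73 bases before the start of the gene, and in 14% of all 35116 promoter windows of the table. It was not found in the windows of EFNA1, EFNB2, EPHA4, EPHB4 or EFNA4. The AP-1 motif (TGANTCA, N for any base) was found in none of these 6 genes' windows and in 7.71% of all windows. EFNA1 held 5 GC boxes, some of them overlapping, EFNB2 held 3, and 45% of all windows held at least 1. The TATA motif was found in the EFNB2 window, 30 bases before the start, and in 11.5% of all windows. A match is a run of letters and not a shown binding site.

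Of the 3 ligands with a kept probe, 1 rose (EFNA1), 1 fell (EFNB2) and 1 did not pass the threshold (EFNA4). A gene was judged by its brightest kept probe and called changed at a Benjamini-Hochberg adjusted p under 0.05 in limma over all kept probes. By that rule 36.9% of the 11646 genes with a kept probe were called, 18.9% higher and 18.0% lower, and with 3 ligands measured nothing is read from their count. The median log2 change of the 3 ligands was 0.18, against 0.03 over all genes. Counted by probe, 4 of the 8 kept probes of the 6 receptors and ligands were called, against 32.3% of all kept probes, 15.8% higher and 16.5% lower. The arms did not overlap for 4 of these 6 genes, against 50.9% of all genes.

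EFNA1, which encodes ephrin-A1, gave log2 intensities of 8.56, 8.45 and 8.56 in control cells and 9.90, 9.76 and 9.84 in knockdown cells by its brightest probe. Every knockdown array stood above every control array, and the arrays of an arm lay close together. The log2 change was 1.31 ± 0.105 (SE), a 2.48-fold rise (adjusted p = 5.2e-05 in limma), with a 95% interval of 1.07 to 1.55. A second, dimmer kept probe of EFNA1 read 5.89, 5.67 and 5.70 in control cells and 7.08, 7.03 and 7.21 in knockdown cells. That probe rose by almost the same amount, 1.35 ± 0.115 on the log2 scale (2.55-fold, adjusted p = 7.09e-05 in limma), although it lay nearer to background. Without background correction the brightest probe rose 2.19-fold and the dimmer probe 1.58-fold. Among all 20348 kept probes the brightest EFNA1 probe had the 287th largest rise, and 96.4% of the probes changed by no more than it did in either direction.

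EFNB2, which encodes ephrin-B2, went the other way. It was detected on the 3 control arrays and on 0 of the 3 knockdown arrays. Its log2 intensities were 4.78, 5.57 and 5.25 in control cells and 4.32, 4.23 and 4.21 in knockdown cells, so the arms did not overlap, but the control arrays themselves differed widely, with a standard deviation of 0.4 against 0.0591 in knockdown cells. Before normalization the raw intensities were 93, 142.6 and 104.8 in control cells against 95.3, 86 and 84.5 in knockdown cells. Those raw ranges overlap, on arrays whose median raw intensity lay between 87.6 and 102.4. The probe passed the detection filter through the control arrays alone. Since the knockdown arrays were not above background, the fall is given as at least 1.59-fold, measured against the lowest value among detected probes of each knockdown array. The adjusted p of 0.00558 in limma belongs to the fitted change, which used the undetected values as they were, and not to the bound. That bound holds for the background correction used: without background correction the fall was 1.22-fold, and with an offset of 50 in place of 16 it was 1.34-fold, both still past the threshold.

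EFNA4, which encodes ephrin-A4, had 2 kept probes, assigned to different RefSeq transcripts of the gene. The brighter gave 5.87, 6.46 and 6.29 in control cells and 6.34, 6.40 and 6.41 in knockdown cells. The other gave 5.82, 6.03 and 6.20 against 5.94, 6.01 and 6.15. For both probes the arms overlapped, and neither passed (adjusted p = 0.439 and 0.941 in limma). The 95% interval of the change ran from -0.18 to 0.54 for the brighter probe and from -0.28 to 0.31 for the other, so a log2 change as large as that of EFNA1 lay outside both.

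**Figure D1:**
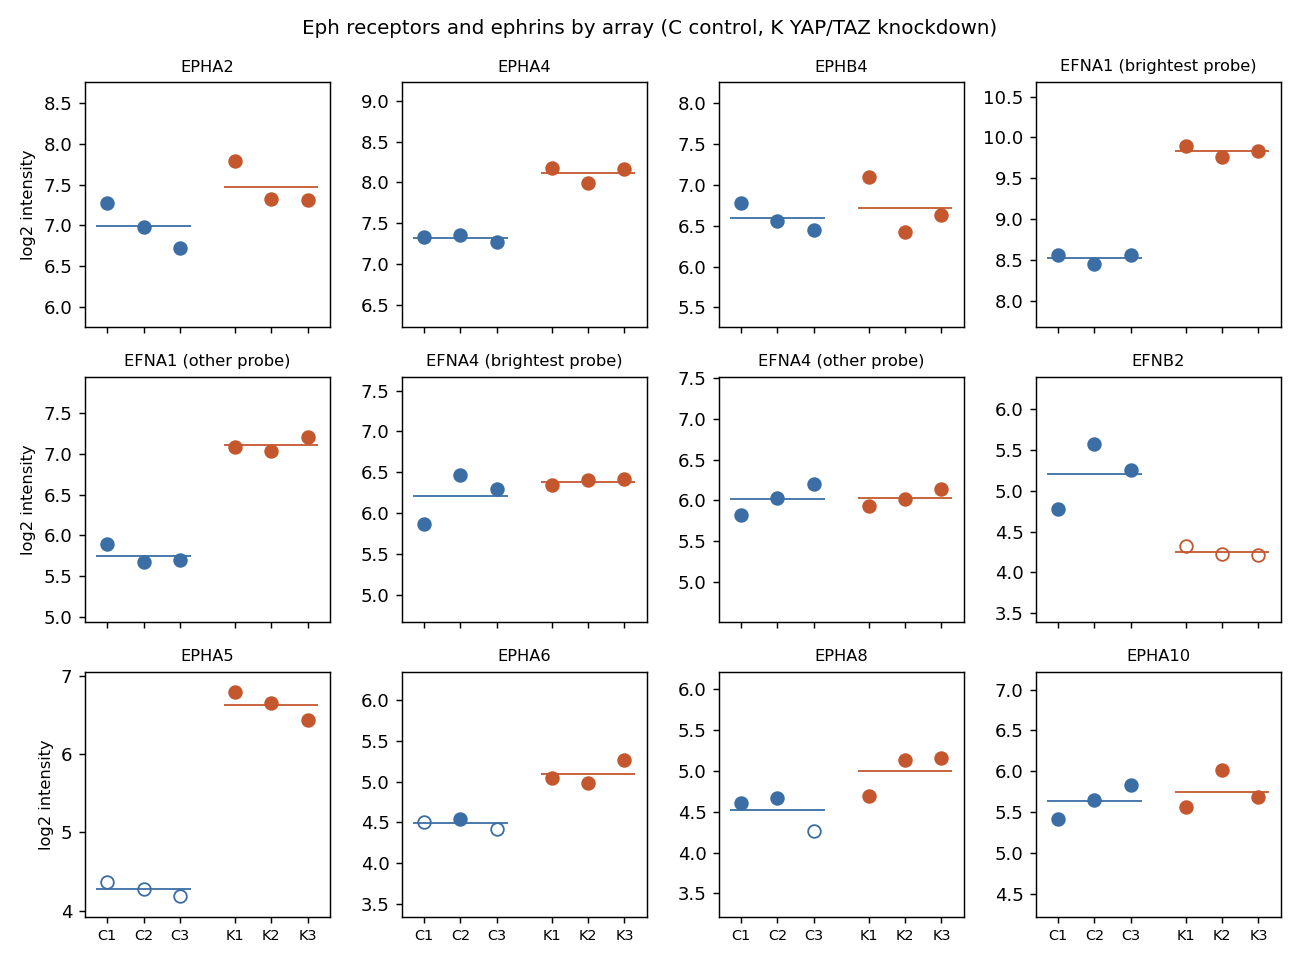
Normalized log2 intensity (y axis) of each kept probe of an Eph receptor or ephrin on the 3 control arrays (C1 to C3, blue) and the 3 knockdown arrays (K1 to K3, orange), each panel with its own range on the y axis. Filled points were detected, open points were not, and lines are arm means. EFNA1 and EPHA4 separate the arms with little spread, EFNB2 and EPHA5 cross the detection limit in opposite directions, and EPHB4, EFNA4 and EPHA10 overlap.

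EFNA4, EFNA3 and EFNA1 follow one another on chromosome 1 in the current human gene table. EFNA3 had no kept probe under its name. ADAM15, on the EFNA4 side of the group, changed by 0.12 ± 0.122 (SE) on the log2 scale, and SLC50A1, the next gene after EFNA1, by -0.04 ± 0.117, neither past the threshold (adjusted p = 0.518 and 0.821 in limma). Further along on the EFNA1 side, DPM3 did not pass (-0.13, adjusted p = 0.554 in limma), while KRTCAP2 rose by 0.41 ± 0.131 (SE, adjusted p = 0.0419 in limma). The table also holds a read-through gene that joins EFNA4 and EFNA3, and whether the EFNA4 probes bind its transcript was not tested. Next to EFNB2 on chromosome 13, ARGLU1 rose by 0.62 ± 0.13 (SE) on the log2 scale (adjusted p = 0.00731 in limma), opposite to EFNB2.

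Of the 3 receptors with a kept probe, 1 was called higher (EPHA4) and 0 lower, while EPHA2 and EPHB4 did not pass, beside 36.9% called over all genes. All 3 had higher means in knockdown cells, with a median log2 change of 0.48.

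EPHA4, the receptor of both ephrin classes, gave log2 intensities of 7.33, 7.36 and 7.27 in control cells and 8.18, 8.0 and 8.17 in knockdown cells. The arms were well apart, with standard deviations of 0.0437 and 0.103. EPHA4 rose by 0.79 ± 0.108 (SE) on the log2 scale, or 1.73-fold (adjusted p = 0.000845 in limma), with a 95% interval of 0.55 to 1.04. When each array was scaled to the median of all probes, most of which were not detected, EPHA4 kept its size (0.81) and lost the call (adjusted p = 0.107, the highest over its settings, against a lowest of 0.000151).

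EPHA2, the main receptor of ephrin-A1 in epithelial cells, read 7.28, 6.98 and 6.72 in control cells and 7.79, 7.32 and 7.31 in knockdown cells. The lowest knockdown array stood just above the highest control array, and in both arms the array numbered 1 was the brightest. The log2 change of 0.48 ± 0.184 (SE, 1.40-fold) missed the threshold (adjusted p = 0.0791 in limma), with a 95% interval of 0.06 to 0.90 that was not adjusted for the number of probes. The arrays numbered alike deviated together across probes, and between arrays of the same number EPHA2 was higher by 0.51, 0.34 and 0.59 in knockdown cells. With the replicate number as a block the same change passed (adjusted p = 0.00859). It also passed without control array 1 (0.63, adjusted p = 0.0373) and without both arrays numbered 1 (0.47, adjusted p = 0.0293), an alternative added once the data had been seen. The highest adjusted p over its settings was 0.4.

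EPHB4, the usual partner of ephrin-B2, read 6.77, 6.56 and 6.45 in control cells and 7.09, 6.42 and 6.63 in knockdown cells. The arms overlapped, and knockdown array 1 was again the highest of its arm. The log2 change was 0.12 ± 0.18 (SE, adjusted p = 0.658 in limma), with a 95% interval of -0.29 to 0.53. EPHB4 thus gave no call in cells in which EFNB2 was called lower. The difference between these changes was not tested.

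**Figure D2:**
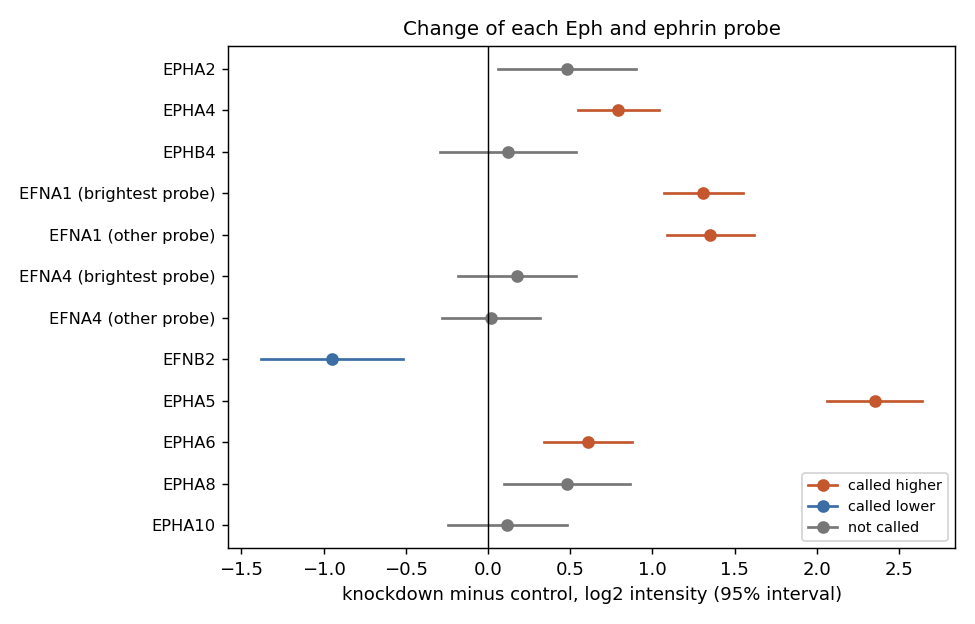
Log2 change, knockdown minus control (x axis), of each kept probe of an Eph receptor or ephrin, with its 95% interval from limma. EFNA1 (both probes), EPHA4, EPHA5 and EPHA6 were called higher (orange), EFNB2 was called lower (blue), and the intervals of EPHB4, EFNA4 and EPHA10 span 0 (grey, with EPHA2 and EPHA8, whose unadjusted intervals do not).

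Of the 12 further genes of the Eph and ephrin families, 4 had a kept probe, and all 4 were A-type receptors. EPHA5, which like EPHA6 and EPHA8 is known mainly from the nervous system, showed the largest change in the family. It was detected on 0 of the 3 control arrays and on 3 of 3 knockdown arrays, with raw intensities of 86.7, 96.8 and 83.3 against 217.8, 160.9 and 144.1. In normalized log2 intensity it read 4.37, 4.27 and 4.18 in control cells and 6.79, 6.65 and 6.44 in knockdown cells. The probe passed the detection filter through the knockdown arrays alone. The rise was at least 4.24-fold, a bound that holds for the background correction used. The adjusted p of 6.7e-06 in limma belongs to the fitted change, which used the undetected values as they were, and not to the bound. Without background correction EPHA5 rose 1.80-fold and with an offset of 50 it rose 2.49-fold, so the size depended on how the background was treated. The call held in each of the 18 settings in which the probe was tested. Requiring detection on all 6 arrays removed the probe, so nothing is read from that tally.

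EPHA6 was dim in both arms, with 4.51, 4.54 and 4.42 in control cells, where 1 of 3 arrays detected it, and 5.04, 4.99 and 5.27 in knockdown cells, where 3 of 3 did. It rose by 0.61 ± 0.117 (SE) on the log2 scale (adjusted p = 0.00478 in limma). The raw ranges overlapped, with 89.1, 106.4 and 91 in control cells against 117, 100.8 and 104.5 in knockdown cells. Without background correction EPHA6 rose 1.11-fold and with an offset of 50 it rose 1.21-fold, both still past the threshold. The call was lost when arrays were scaled to the median of the probes detected on all 6 (0.56, adjusted p = 0.0781) or of all probes (0.59, adjusted p = 0.133). EPHA8 read 4.61, 4.67 and 4.27 against 4.69, 5.14 and 5.16 and did not pass (0.48 ± 0.168, adjusted p = 0.0595 in limma). EPHA8 passed with the replicate number as a block (adjusted p = 0.0385), with 1 probe per gene (0.0462), with probes averaged (0.0415) and with the trend and robust prior (0.0461). It also passed without knockdown array 1 (0.63, adjusted p = 0.0163) and without both arrays numbered 1 (0.68, adjusted p = 0.0101). The highest adjusted p over its settings was 0.343. EPHA10, known as a receptor without kinase activity, overlapped between the arms (0.12 ± 0.159, adjusted p = 0.628 in limma). Counting members and further genes together, 7 Eph receptors had a kept probe, and 3 of them were called higher and 0 lower, where 18.9% of all genes were called higher and 18.0% lower. EPHA5, EPHA6 and EPHA8 would not have been kept on the control arrays alone, so nothing is read from this count.

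**Figure D3:**
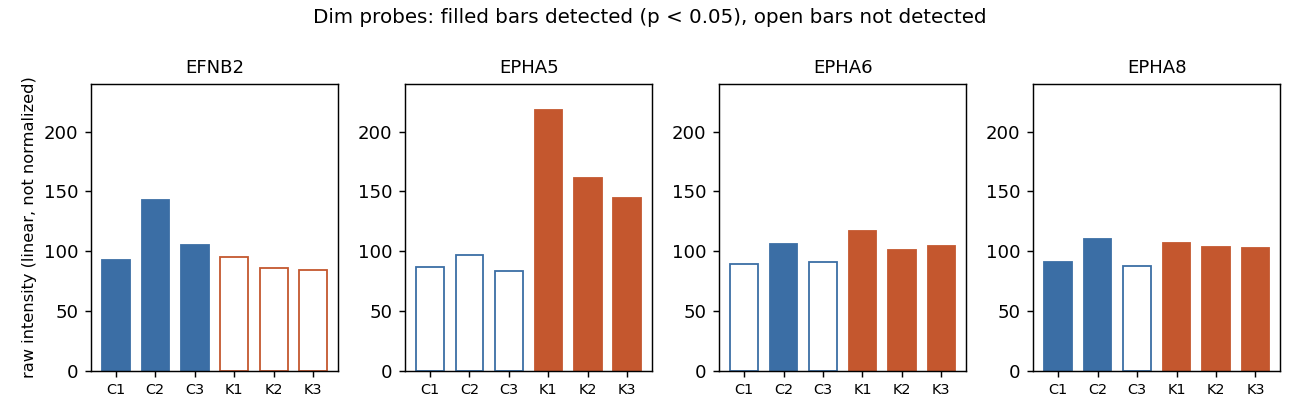
Raw intensity before normalization (y axis, linear, from 0) on the control (C1 to C3) and knockdown arrays (K1 to K3). The 4 probes shown are those of the family that were not detected on every array. Bars are filled where the probe was detected: EFNB2 only on control arrays, EPHA5 only on knockdown arrays, while EPHA6 and EPHA8 reach at most 117 and 110.3.

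Genes that share the profile of the strongest members across the 6 arrays were sought by the smallest root mean square difference in log2 intensity, each gene set to its own control mean. Nearest to EFNA1 were OXR1 (0.0522), CBLN3 (0.0559) and P4HTM (0.0614), with log2 changes of 1.31, 1.33 and 1.30. Nearest to EFNB2 were SLC25A24 (0.0653), ARMH4 (0.0785) and SLC35G1 (0.0841), with log2 changes of -0.90, -0.95 and -0.91. The likeness rests on 6 arrays in 2 arms, and close log2 changes follow from how these genes were picked. For EFNB2 it includes the knockdown arrays, on which its probe was not detected.

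Downstream of the receptors, 22 of 26 listed adaptors and kinases that bind Eph receptors or ephrins had a kept probe. Of these 11 rose and 3 fell, or 63.6% called against 36.9% of all genes, with a median log2 change of 0.37 against 0.03. The list was drawn up with earlier results of these data known, so nothing is read from that excess. Without control array 3 the count was 6 higher and 1 lower, and 6 and 7 were higher without knockdown arrays 2 and 3. GRB2, an adaptor that links receptor tyrosine kinases to RAS, rose 2.41-fold (log2 change 1.27 ± 0.141, adjusted p = 0.000301 in limma), and its other kept probe rose by 1.43. FYN, a SRC family kinase active in ephrin signalling, fell 2.23-fold (adjusted p = 0.000602 in limma), and its other 3 kept probes fell by 0.84, 0.95 and 1.17 on the log2 scale. INPPL1, the lipid phosphatase SHIP2 that binds EPHA2, rose by 0.63 ± 0.105 (SE, adjusted p = 0.00251 in limma). Of the 14 called genes, 7 (ABL2, SHC1, PTK2, NCK2, STAT3, PIK3R1 and PICK1) had another kept probe that did not pass, and averaging the probes of each gene gave 8 higher and 2 lower. SRC, YES1, ABL1, NCK1 and CRKL were among the 8 that did not pass.

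ABL2, a kinase related to ABL1, had the largest fitted change of the list, 2.50 ± 0.772 (SE, adjusted p = 0.0371 in limma), and the least even arrays. It read 8.27, 6.15 and 5.94 in control cells and 10.93, 8.66 and 8.28 in knockdown cells, with the array numbered 1 highest in each arm. The arms barely failed to overlap. Its call was lost without control array 2 (adjusted p = 0.126) or 3 (0.116), without knockdown array 1 (0.0718) or 2 (0.0519), with an intensity trend and robust prior (0.168), without background correction (0.0855), with an offset of 50 (0.0515) and without the detection filter (0.149). With the replicate number as a block it was past the threshold (3.4e-06), and of its other 2 kept probes 1 rose by 1.09 and 1 did not pass (2.24, adjusted p = 0.0536 in limma). Without both arrays numbered 1 its change was 2.42 (adjusted p = 1.19e-05).

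Enzymes listed as acting on Eph receptors or ephrins changed in both directions. Of 11 with a kept probe out of 17, 3 rose and 4 fell, 63.6% called against 36.9% of all genes. This list was also drawn up with earlier results of these data known, so nothing is read from its share. MME, the kidney surface peptidase neprilysin, fell 3.47-fold (adjusted p = 3.9e-05 in limma), from 8.85, 8.98 and 8.81 to 7.25, 7.16 and 6.84. An action of MME on Eph proteins is not taken as established, though MME is counted among the 4 that fell. PTPN1, a tyrosine phosphatase that can act on EphA receptors, fell 1.85-fold (adjusted p = 0.00491 in limma). NCSTN, a subunit of the gamma-secretase that cleaves ephrin-B stubs, rose 1.99-fold (adjusted p = 0.00017 in limma), and PSENEN, another subunit, rose by 0.54 ± 0.122 on the log2 scale. PTPN13, a phosphatase whose mouse counterpart removes phosphate from B-type ephrins, rose 1.68-fold (adjusted p = 0.00417 in limma). ADAM10, the protease known to shed A-type ephrins, did not pass (0.23 ± 0.161, adjusted p = 0.324 in limma), and ADAM17 did not either.

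**Figure D4:**
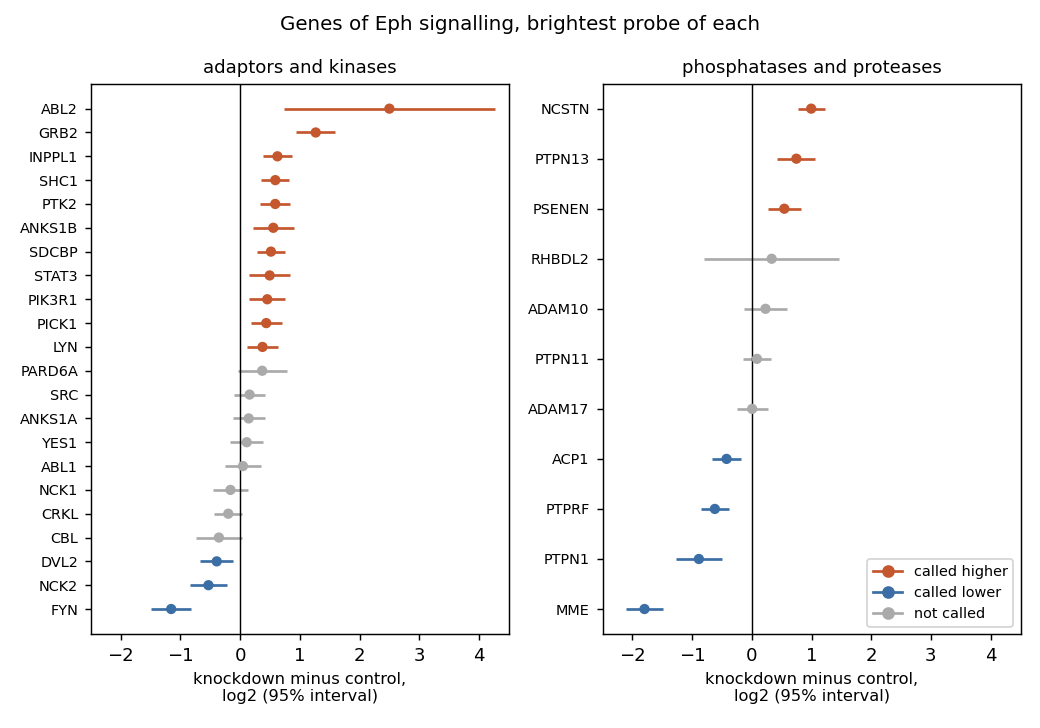
Log2 change, knockdown minus control (x axis), with its 95% interval from limma, for the brightest kept probe of each listed gene of Eph signalling: 22 adaptors and kinases and 11 phosphatases and proteases. Orange genes were called higher, blue genes lower and grey genes did not pass. ABL2 has the widest interval.

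Between 19674 and 20971 probes were detected per array, and across kept probes log2 intensities correlated at 0.981 or above within an arm and at 0.962 or below between arms. Of 8 markers of kidney epithelium and renal carcinoma only PAX8 had a kept probe, and it was detected on all 6 arrays. Of 5 epithelial markers 4 had one (KRT8, KRT18, KRT19 and EPCAM), with a summed linear level of 3304 to 3426 in control cells and 877 to 1045 in knockdown cells. KRT8 and KRT19 fell, while KRT18 (-0.36, adjusted p = 0.103 in limma) and EPCAM (0.28, adjusted p = 0.36 in limma) were not called. The sum is mostly KRT19 and KRT8, with control means of 10.98 and 10.27 in log2 intensity, against 6.69 for KRT18 and 4.46 for EPCAM. Endothelial markers had a kept probe in 0 of 5 cases, blood markers in 1 of 5 (CD14, which rose by 0.71 on the log2 scale, with levels of 162.4 to 183.0 and 265.5 to 323.4), and fibroblast and pericyte markers in 4 of 8, of which COL1A1, PDGFRB and THY1 fell and LUM rose, with summed levels of 1609 to 1683 and 816.5 to 920.0. COL1A1 was detected on 3 control and 0 knockdown arrays, and LUM on 0 control and 3 knockdown arrays. Both lay near background, and each was kept through 1 arm alone. The part of these marker shifts in the changes of Eph receptors and ephrins was not tested.

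How far the main changes depended on the processing is shown by repeating the fit. EFNA1 was called higher in each of 19 other settings, with log2 changes of 1.13 to 1.34, and EFNB2 was called lower in 17 of 18, with -1.19 to -0.28. Requiring detection on all 6 arrays removed the EFNB2 probe, which had passed the filter through the control arrays alone. Nothing is read from the EFNB2 tally.

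**Figure D5:**
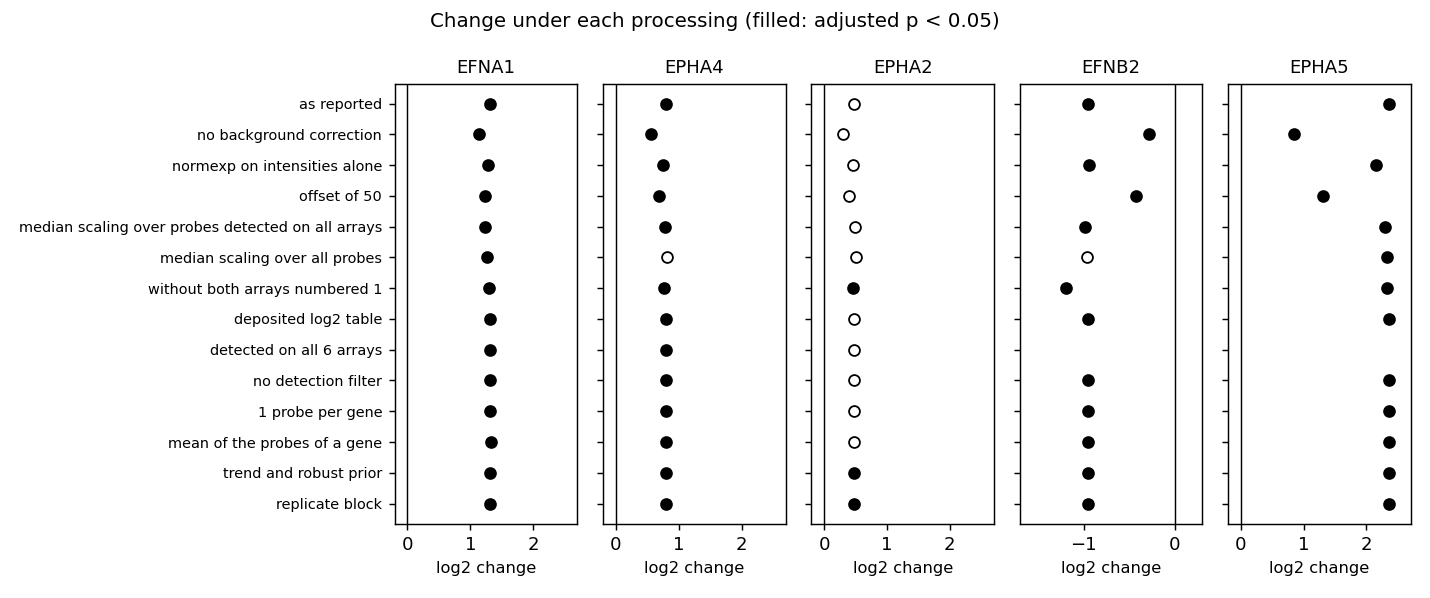
Log2 change (x axis) of 5 genes by their brightest probe under each processing (rows), apart from leaving out single arrays. Filled points have an adjusted p under 0.05, and a missing point means that the probe left the filter. EFNA1 stays between 1.13 and 1.33, EFNB2 and EPHA5 shrink toward 0 without background correction and with an offset of 50, and EPHA2 passes only with the replicate block, with the trend and robust prior and without both arrays numbered 1.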

How the data were processed

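Total RNA of SN12C cells was hybridised to 6 Illumina bead arrays, 3 per arm, and the arm of each array came from the labels. The deposited intensity values are linear and unnormalized, per the file headers. Every intensity has a detection p-value beside it in the deposited file. The authors also deposited log2 values, for exactly the kept probes, which differ from those computed here by at most 0.0238. Per the submitters' processing notes they used limma, with version and steps not given in the sources used here. Of 48202 lines, 887 without a probe identifier were left out.

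The normexp background correction informed by detection p-values was applied (offset 16), followed by quantile normalization and log2, all in limma 3.58.1 (function neqc, R 4.3.3). Levels are relative within an array, and the precision is limited by the number of arrays. Of the kept probes 15493 had 1 symbol in the platform annotation, 4 had several and 4851 were unnamed in it. Arms were compared probe by probe by limma (lmFit, eBayes; two-sided; arm as sole term), with Benjamini-Hochberg adjustment over all 20348 kept probes, of which 6576 (32.3%) were called and 8512 had an unadjusted p under 0.05. The steps were tested on simulated data. A gene was judged by its brightest kept probe. Named genes were the 10 chosen ones, YAP1 and WWTR1, other Eph or ephrin genes with a kept probe, up to 4 called genes with the largest change per signalling list, and the 3 genes most like the strongest rise and fall. Other genes are named as examples of a count or as chromosomal neighbours, after their values were seen. One list of signalling genes is not reported here. The members and lists were chosen with earlier results of these data known.

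Deviations from the arm means correlated at 0.629, 0.252 and 0.464 between arrays of the same number, all above 0.1. The numbers were therefore used as pairs in an alternative fit, the replicate block. The calls reported come from the fit with arm as sole term, which leaves the pairing out. Between arrays numbered 2 and 3 the deviations also correlated across numbers (0.377 and 0.237). Knockdown array 2 thus correlated better with control array 3 than with control array 2 (0.252). Alternatives covered background correction, offset, scaling, the deposited log2 values, the detection filter, probes per gene, the variance prior, the replicate block and leaving out each array.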

Additional observations from a re-analysis of the deposited data

How the results depend on the processing

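The call of EFNA1 by both probes and of YAP1 held in every alternative in which they could be tested, and EFNA4, EPHB4 and EPHA10 passed in none. The call of EPHA5 held where its probe was tested, but that probe passed the detection filter through the knockdown arrays alone. Scaling each array to the median of all probes, added after seeing the data, left 1555 probes called in place of 6576. EPHA4 (0.81) and EFNB2 (-0.96, adjusted p = 0.0628) then kept their direction without a call, and of the 3 receptors and 3 ligands chosen by name 0 receptors were called higher and 0 ligands lower. The receptor counts here leave out EPHA5, EPHA6, EPHA8 and EPHA10. In that setting 2 adaptors and kinases were called higher and 1 lower, and 1 phosphatase or protease higher and 1 lower. Scaling to the median of the probes detected on all 6 arrays called 4751. The cause was not tested. With the replicate number as a block, EPHA2 (0.48) was called, so 2 of the 3 receptors were higher. It changed no other call of a family gene except EPHA8, and 8271 probes were called. The trend and robust prior gave the same call of EPHA2 (0.48), with 2 of the 3 receptors higher. Without both arrays numbered 1, EPHA2 was 0.47, again with 2 of the 3 receptors higher. Leaving out each array in turn, EPHA2 ranged from 0.32 to 0.63, 1 to 2 of the 3 receptors were called higher, and 6 to 8 adaptors and kinases were higher and 1 to 2 lower. Requiring detection on all 6 arrays removed, among others, EFNB2, EPHA5, EPHA6 and EPHA8, which left 0 ligands lower. Probes near background limit the sizes given for EFNB2, EPHA5, EPHA6 and EPHA8.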
